A study of Mus musculus with 4 samples.

Results

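The upper-layer cortex spots described here are 1095 of the 12994 array spots that lay under tissue in 4 mouse brain sections. They were chosen from gene counts. Of the 10948 tissue spots with at least 2000 UMI (unique molecular identifiers, each standing for 1 captured molecule), the 5474 whose share of Slc17a7, the vesicular glutamate transporter of cortical excitatory neurons, was above the median of their section were kept as Slc17a7-high. In each section the 20% of these with the highest summed share of Cux2, Rasgrf2, Lamp5, Calb1 and Stard8, which mark the upper cortical layers, were taken. This gave 297 and 261 spots in the rNLS8 sections and 260 and 277 spots in the control sections, for replicates 1 and 2 of each group. The other 4379 Slc17a7-high spots, and among them 1095 deep-layer spots ranked highest on deep-layer markers, served for comparison.

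The rNLS8 group, like the control group, had 2 brain sections from mice labelled 11 weeks old, cut at 5 µm from formalin-fixed, paraffin-embedded tissue and measured with the Visium spatial assay, in which RNA is counted at a grid of spots that can each hold several cells. All 4 samples, controls included, carry the label of doxycycline (Dox) withdrawal, and the brains were taken 3 weeks after it. In rNLS8 mice a doxycycline-controlled transcription factor, driven in neurons by the neurofilament heavy chain promoter, turns on human TDP-43 that lacks a working nuclear localization signal once doxycycline is withdrawn. The labels do not describe the control genotype further. Replicate 1 is labelled female and replicate 2 male in both groups, and nothing in the labels says that the sections came from separate animals. The p-values of rNLS8 against control thus reflect how far these particular sections spread and may miss variation between animals. Those of tests between spot classes reflect only how far the contrast between classes spread over the sections, and may miss it too.

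Upper-layer excitatory neurons of the cortex send most of their axons to other cortical areas and across the corpus callosum, while deep-layer neurons also project to the thalamus, brainstem and spinal cord. Their spines carry glutamate receptors coupled to calcium and calmodulin signalling, and their surroundings hold astrocytes, microglia and interneurons, whose RNA enters the same spots. TDP-43 is a nuclear RNA-binding protein whose loss from the nucleus and build-up in the cytoplasm mark amyotrophic lateral sclerosis and frontotemporal dementia.

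The upper-layer spots summed to 2370440 and 1714380 UMI in the rNLS8 sections and 1535440 and 1877630 UMI in the control sections, after the 6 selecting genes were left out. Whole sections held 17627577 to 28056089 UMI. When gene counts were set against each other within a group, chi-square divided by its degrees of freedom was 18.5 for rNLS8 and 46.3 for control, so no section was a copy of another. Sections shared 1900 to 3047 spot barcodes, which are fixed array positions. One section went against its label: Y-linked genes had 3836 UMI in rNLS8 replicate 1, which is labelled female, against 0 UMI in control replicate 1, also labelled female. The male-labelled sections had 2452 UMI in rNLS8 and 2562 UMI in control. Counts of called genes are therefore also given without rNLS8 replicate 1, and genotype, which rests on the labels, was checked with Tardbp.

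Tardbp, the gene of TDP-43, had 197 and 138 UMI in the whole rNLS8 sections, against 0 and 0 UMI in the whole control sections. In the upper-layer spots it had 17 and 8 UMI in rNLS8, against 0 and 0 UMI in control, at least 6.97-fold higher when 3 counts over the control group are taken as the limit of a count of 0. Both rNLS8 sections stood above both control sections. The gene is listed at 0 in control although mouse cells in general use it, so these counts check the labels and give no level of the mouse gene.

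The values that chose the spots differed between the groups and are given as a description only. The lowest summed share of the 5 markers inside the selection was 0.0562% and 0.0489% in the rNLS8 sections and 0.111% and 0.125% in the control sections. The highest share just outside was 0.0560% and 0.0488% in rNLS8 and 0.110% and 0.125% in control. A selected spot held a median of 6 and 4 UMI of the 5 markers in rNLS8 and 9 and 12 UMI in control, so the choice rested on few molecules per spot. The median share of Slc17a7 over all spots, which set the first step, was 0.184% and 0.310% in rNLS8 and 0.249% and 0.188% in control. Median depth per selected spot was 8564 and 5865 UMI in rNLS8 and 6000 and 6929 UMI in control. In rNLS8, 2972 of 3033 and 2606 of 2656 tissue spots reached the limit of 2000 UMI. In control, 2596 of 3962 and 2774 of 3343 did, a smaller share in both sections. What part this had in the results was not tested.

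Positions on the array, which the rule did not use, showed a band in both control sections and a more scattered choice in both rNLS8 sections. A selected spot had on average 1.76 and 1.37 selected spots among its 6 neighbours in rNLS8, against 3.13 and 2.74 in control. The share of selected spots with any selected neighbour was 78.1% and 70.1% in rNLS8 and 86.9% and 80.5% in control. The median distance to the nearest position without tissue was 6 and 6 spot steps in rNLS8 and 9 and 7 steps in control, and 9 and 9 steps in rNLS8 and 14 and 9 steps in control for the other Slc17a7-high spots. Spots at the very edge made up 7.74% and 9.58% of the selection in rNLS8 and 0.769% and 4.33% in control. Among the other Slc17a7-high spots they made up 6.14% and 7.68% in rNLS8 and 0.385% and 5.41% in control, so this difference was not particular to the selection.

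**Figure D1:**
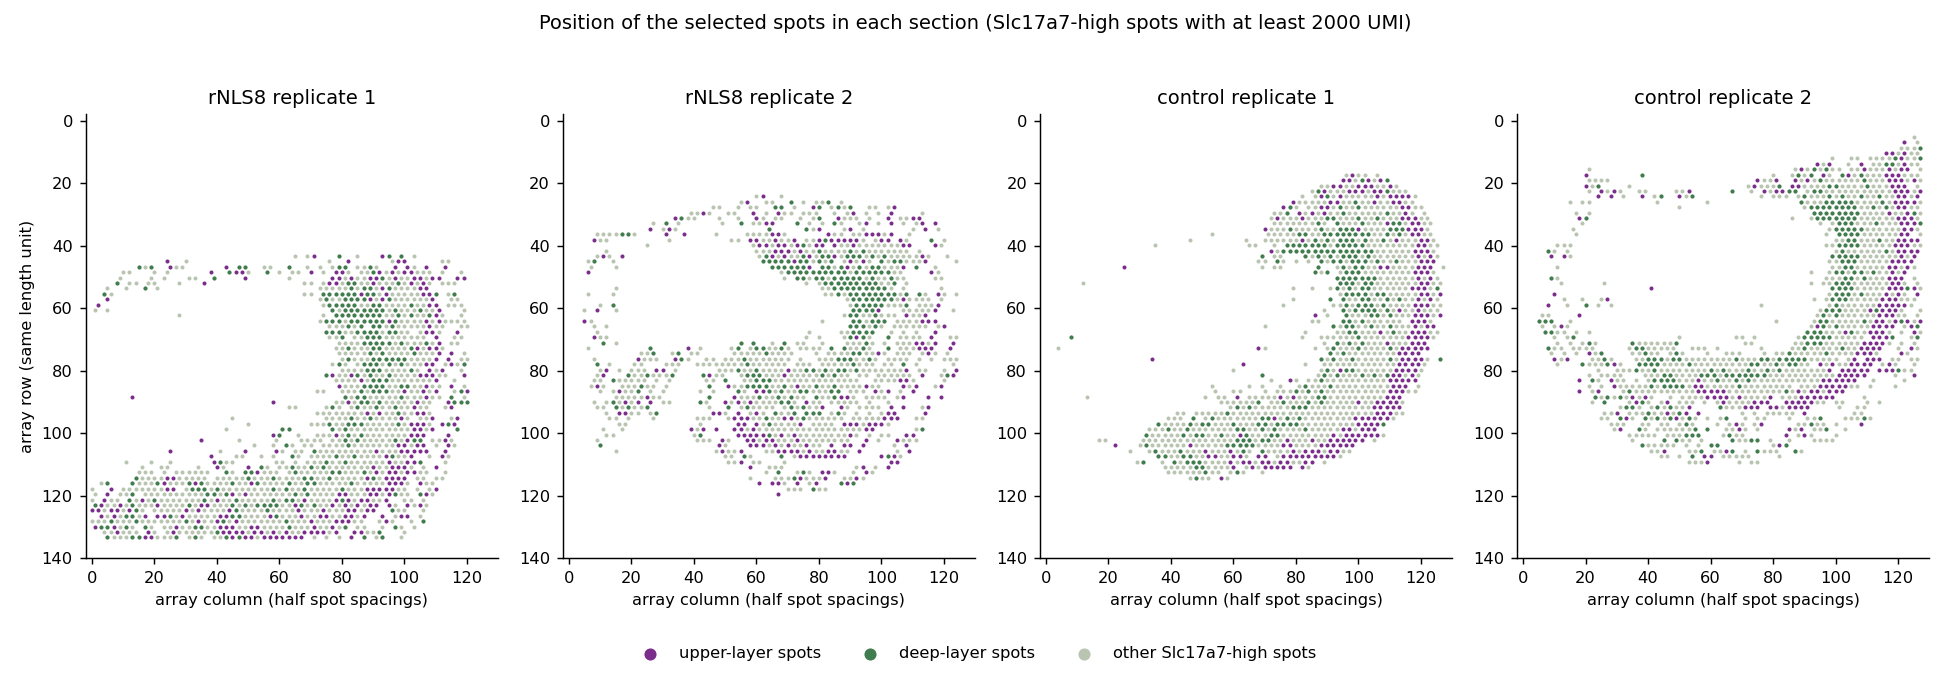
Array positions of the Slc17a7-high spots with at least 2000 UMI in the 4 sections, rNLS8 on the left. The axes are array column and row in the same length unit, and purple marks upper-layer, green deep-layer and grey the remaining Slc17a7-high spots. The purple spots form a band in the control sections and are more dispersed in the rNLS8 sections, where a selected spot had 1.76 and 1.37 selected neighbours, against 3.13 and 2.74 in control.

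Markers that the rule did not use bore out the label in part. The summed level of 10 other upper-layer markers was higher in upper-layer spots than in the other Slc17a7-high spots of the same section by 0.41 and 0.29 (log2) in rNLS8 and by 0.59 and 0.68 in control. For 10 deep-layer markers not used, the same log2 ratio was -0.54 and -0.83 in rNLS8 and -1.01 and -0.92 in control. Single markers varied: Dkkl1 was lower in upper-layer spots in all 4 sections, with log2 ratios of -0.29 and -0.78 in rNLS8 and -0.66 and -0.83 in control, Unc5d stood at -0.02 in rNLS8 replicate 2, and Rorb, with at most 3 UMI a section, at -0.32 in control replicate 2. Both summed layer contrasts had the direction of the label in every section and were smaller in both rNLS8 sections than in both control sections. Of the upper-layer markers not used, 1 was at 0 in both rNLS8 sections, 2 in control replicate 1 and 1 in control replicate 2. The spots can thus be read as enriched for upper layers in all sections, with a smaller contrast of these unused markers in rNLS8. For the 5 selecting markers the log2 ratio was 1.59 and 2.08 in rNLS8 and 1.75 and 1.82 in control, so the groups overlapped. A less sharp choice of spots in rNLS8 and lower levels of the unused markers there cannot be told apart.

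Other cell types were present in the selected spots. The summed level of 5 microglial markers, among them Cx3cr1, P2ry12, Tmem119 and Csf1r, was 239 and 272 CPM (counts scaled to the same total in every library) in rNLS8, against 151 and 217 CPM in control, with none at 0. Of 6 oligodendrocyte markers the sum was 8583 and 5986 CPM in rNLS8 and 6010 and 5109 CPM in control, of 6 meningeal markers 134 and 132 CPM in rNLS8 and 113 and 87.4 CPM in control, and of 5 astrocyte markers 4279 and 4415 CPM in rNLS8 and 3986 and 4514 CPM in control. The 6 striatal markers gave 1905 and 799 CPM in rNLS8 and 1464 and 2338 CPM in control, with 1 at 0 in each section. The 6 markers of T cells and border leukocytes gave 11.8 and 15.7 CPM in rNLS8 and 1.29 and 4.77 CPM in control, with 4 and 3 at 0 in rNLS8 and likewise in control. The microglial, meningeal and T cell sums were higher in both rNLS8 sections than in both control sections, and their part in the results below was not tested. In sums over spots, fewer cells of a type and less RNA per cell cannot be told apart.

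In upper-layer spots, 7 genes of the interferon response, 7 of activated microglia, 4 of complement and antigen presentation and 6 of lysosomes rose in rNLS8, while 7 genes of calcium and calmodulin signalling, 4 of excitatory neurons and 3 of vesicle release fell. edgeR's quasi-likelihood test with Benjamini-Hochberg adjustment called 238 of 10161 genes (2.34%) at an adjusted p under 0.05, 77 of them higher (0.758%) and 161 lower (1.58%). Bst2 rose by 3.27 and B2m by 2.46 on the log2 scale, and Igfn1 fell by 3.33. Without rNLS8 replicate 1, 115 genes were called, 83 of them among the 238, and without rNLS8 replicate 2, 77 genes, 64 of them among the 238. Without control replicate 1 or 2, 1081 and 2379 genes were called, with 238 and 237 of the 238 among them. None of the 238 changed sign under any alternative in which it had a value. The counts called without a control section, given below for single lists, share in this rise over all genes. They are no support for a list.

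The interferon response is the antiviral program that cells switch on after interferon binds its receptor, through a transcription factor complex that holds IRF9. Of the 30 genes on the list of this response, 26 were analysed here and 13 passed the filter on low counts, and of these 7 rose, 0 fell and 6 did not pass the test. Their median log2 fold change was 1.84, against 0.01 over all genes tested. The filter keeps a gene that is well counted in 1 group only, so the 13 are not a fair sample of the list. The same limit holds for the members, medians and directions of each list below that lost genes to the filter. Without the filter, 14 of 25 rose and 0 fell, but the genes called over all went from 238 to 824. The 14 share in this rise and are no support for the list.

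Bst2, which encodes tetherin, a protein that holds budding viruses at the cell surface, had 67.7 and 74.7 CPM in the rNLS8 sections, against 4.25 and 9.80 CPM in the control sections. Both rNLS8 values were above both control values by a wide margin (log2 fold change 3.27, SE 0.324, adjusted p = 0.00158). Oasl2, an oligoadenylate synthetase-like gene, had 39.8 and 54.4 CPM in rNLS8, against 3.54 and 3.27 CPM in control (3.76, SE 0.369, adjusted p = 0.00158). Again the groups did not overlap. Usp18, an enzyme that removes ISG15 and damps the interferon receptor, had 15.4 and 18.5 CPM in rNLS8, against 2.83 and 3.81 CPM in control (2.30, SE 0.438, adjusted p = 0.0266). Irf9, the DNA-binding part of that complex, had 34.1 and 34.8 CPM in rNLS8, against 8.50 and 13.6 CPM in control (1.60, SE 0.305, adjusted p = 0.0266). In each of these genes the lower rNLS8 section was above the higher control section.

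Rtp4, an interferon-induced receptor chaperone, had 21.1 and 29.2 CPM in rNLS8, against 5.66 and 5.99 CPM in control (2.08, SE 0.373, adjusted p = 0.0217), and Ifi27, an interferon-induced membrane protein, had 99.8 and 127 CPM in rNLS8, against 40.4 and 34.8 CPM in control (1.59, SE 0.215, adjusted p = 0.00662). Cxcl10, a chemokine that draws T cells, had 27 and 52 UMI in rNLS8, against 2 and 0 UMI in control, 33.0 times the control share of counts (8.85 to 278 as the 95% interval from counting error), with adjusted p = 0.0233. Rnf213, a large ubiquitin ligase that interferon induces, was among the 10 largest rises, with 22.7 and 17.4 CPM in rNLS8, against 2.83 and 4.36 CPM in control (2.44, SE 0.430, adjusted p = 0.0207). The levels of Irf7 (1.84, adjusted p = 0.0839) and Ifit1 (2.01, adjusted p = 0.0648) did not pass, although their groups did not overlap either. Over all genes tested, 26.3% had both rNLS8 sections above both control sections, so lack of overlap on its own is common here. Without rNLS8 replicate 1, 6 genes of the list were called, without rNLS8 replicate 2, 4, with the top 10% of spots, 3 of 12, and by DESeq2, 2 of 25. Without control replicate 1 or 2, 10 and 10 were called.

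The promoters of Bst2 and Cxcl10, both of which rose, are shown because each holds the core of the interferon-stimulated response element, the motif that the IRF9 complex binds. The sequences are RefSeq windows of 250 bases before to 50 bases after the gene start (build GRCm38.p6), read 5′ to 3′ along the gene, with the motif in capitals. The motif searched was GAAA, any 2 bases and GAAA again, on both strands, and in Bst2 it matched at 2 overlapping places.
Bst2 (chr8:71537423-71537722, strand minus): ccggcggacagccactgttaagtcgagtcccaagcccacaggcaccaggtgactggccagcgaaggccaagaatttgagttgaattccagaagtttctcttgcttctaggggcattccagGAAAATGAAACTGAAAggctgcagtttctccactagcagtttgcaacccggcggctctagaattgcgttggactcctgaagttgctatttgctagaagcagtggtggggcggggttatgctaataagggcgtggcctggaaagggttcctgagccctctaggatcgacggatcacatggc
Cxcl10 (chr5:92348840-92349139, strand minus): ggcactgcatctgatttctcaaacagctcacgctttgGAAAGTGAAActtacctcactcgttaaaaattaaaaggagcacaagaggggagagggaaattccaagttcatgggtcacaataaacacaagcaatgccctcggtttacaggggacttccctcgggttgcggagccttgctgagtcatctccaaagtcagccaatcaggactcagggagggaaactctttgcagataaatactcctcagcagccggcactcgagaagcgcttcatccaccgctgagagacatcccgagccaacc
Of the 32851 promoter windows in the table, 3.44% held this motif. Of the 30 genes of the interferon list, 20 had a window and 12 of them held it. Of the 7 that rose, Bst2, Cxcl10, Irf9 and Oasl2 had a window, and the first 2 held the motif. A match describes the letters only.

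Disease-associated microglia are the phagocytic, lipid-handling state that microglia take on near damaged neurons. Of 29 genes of this state that were analysed, 23 were tested, 7 rose, 0 fell and 16 did not pass, with a median log2 fold change of 1.00. The filter limits this sample too. Cd52, a small surface glycoprotein of leukocytes, had 19.5 and 21.9 CPM in the rNLS8 sections, against 2.12 and 3.27 CPM in the control sections (2.87, SE 0.439, adjusted p = 0.0110). Cst7, an inhibitor of cysteine proteases, had 26 and 50 UMI in rNLS8, against 1 and 0 UMI in control, 63.6 times the control share of counts (11.1 to 2544 as the 95% interval from counting error), with adjusted p = 0.0169. It was nearly confined to the rNLS8 sections. Lgals3bp, a secreted galectin-binding glycoprotein, had 23.1 and 30.9 CPM in rNLS8, against 4.96 and 5.99 CPM in control (2.26, SE 0.369, adjusted p = 0.0155), and Cd68, a lysosomal glycoprotein of phagocytes, had 26.4 and 29.7 CPM in rNLS8, against 9.91 and 11.4 CPM in control (1.37, SE 0.302, adjusted p = 0.0443). The receptor Trem2 (1.15, adjusted p = 0.0844) and its signalling partner Tyrobp (1.31, adjusted p = 0.0820) did not pass. Of the list, 5 and 4 genes were called without rNLS8 replicate 1 and 2, 11 and 16 were called higher without control replicate 1 and 2, and DESeq2 called 3 of 28.

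Homeostatic microglial genes showed no called member: of 19 listed, 16 were tested, 0 rose and 0 fell by edgeR, with a median of 0.32, while 4 passed 0.05 before adjustment and 0 were called by DESeq2. P2ry12, the purinergic receptor of resting microglia, had 19.5 and 19.6 CPM in rNLS8, against 12.7 and 22.9 CPM in control (0.10, adjusted p = 0.903), and Csf1r, the receptor on which microglia depend for survival, had 69.4 and 67.9 CPM in rNLS8, against 61.6 and 69.1 CPM in control (0.07, adjusted p = 0.892). Both overlapped between the groups. Lat2, an adaptor of immune receptor signalling in myeloid cells, had 25 and 23 UMI in rNLS8, against 1 and 1 UMI in control, 20.1 times the control share of counts (5.26 to 171 as the 95% interval from counting error), with adjusted p = 0.0137. Ccl5, a chemokine of T cells and border leukocytes, had 23 and 4 UMI in rNLS8 and 0 and 0 UMI in control, at least 7.53-fold higher, and was under the filter on low counts.

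Complement and antigen presentation genes had 12 of 21 members tested, of which 4 rose and 0 fell, with a median of 1.12. Genes well counted in 1 group only pass the filter, so the 12 are not a fair sample of the list. B2m, the light chain of MHC class I, had 350.1 and 386 CPM in the rNLS8 sections, against 48.1 and 83.8 CPM in the control sections (2.46, SE 0.240, adjusted p = 0.00158). C4b, a complement component that reactive astrocytes also make and whose counts are uncertain against its near copy C4a, had 79.9 and 106 CPM in rNLS8, against 22.7 and 18.5 CPM in control (2.18, SE 0.247, adjusted p = 0.00344). C1qa, a subunit of the complement starter C1q made by microglia, had 279 and 381 CPM in rNLS8, against 151 and 172 CPM in control (1.03, SE 0.196, adjusted p = 0.0267), and C1qc, another subunit, had 125 and 166 CPM in rNLS8, against 63.01 and 62.6 CPM in control (1.21, SE 0.204, adjusted p = 0.0169). The groups were apart in all 4 genes. The list had 5 and 3 genes called without rNLS8 replicate 1 or 2, and 8 and 6 without control replicate 1 or 2. H2-D1, an MHC class I heavy chain, was counted in replicate 1 of each group only, with 79 and 0 UMI in rNLS8 and 16 and 0 UMI in control, and did not pass (1.73, adjusted p = 0.500).

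Lysosomal and autophagy genes had 30 of 30 analysed members tested, of which 6 rose, 0 fell and 24 did not pass, with a median of 0.41. Grn, which encodes progranulin, a lysosomal protein whose loss causes frontotemporal dementia with TDP-43 pathology in humans, had 138 and 156 CPM in the rNLS8 sections, against 55.9 and 49.5 CPM in the control sections (1.48, SE 0.191, adjusted p = 0.00556). Ctsd, the aspartic protease cathepsin D, had 245 and 301 CPM in rNLS8, against 93.5 and 113 CPM in control (1.40, SE 0.190, adjusted p = 0.00667). Ctss, a cysteine cathepsin of microglia, had 174 and 227 CPM in rNLS8, against 48.9 and 84.4 CPM in control (1.57, SE 0.253, adjusted p = 0.0144). All 3 were higher in both rNLS8 sections. Of the list, 4 and 3 genes were called higher without rNLS8 replicate 1 or 2, against 11 and 12 without control replicate 1 or 2, where 1 and 4 were called lower.

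Npc2, a cholesterol carrier of the lysosome, had 165 and 169.5 CPM in rNLS8, against 85.7 and 99.1 CPM in control (0.85, SE 0.177, adjusted p = 0.0367). Ctsz, another cathepsin, rose by 1.00. Ctsd, Ctss and Ctsz are on the microglial list too, so these counts overlap. Becn1, a starter of autophagy, had 103 and 92.6 CPM in rNLS8, against 189 and 143 CPM in control and did not pass (-0.75, adjusted p = 0.0724). The Ctsd promoter holds the core of the CLEAR element, the motif bound by TFEB, the transcription factor of lysosomal genes, and is shown for that reason with the motif TCACGTGA in capitals (RefSeq, GRCm38.p6).
Ctsd (chr7:142387778-142388077, strand minus): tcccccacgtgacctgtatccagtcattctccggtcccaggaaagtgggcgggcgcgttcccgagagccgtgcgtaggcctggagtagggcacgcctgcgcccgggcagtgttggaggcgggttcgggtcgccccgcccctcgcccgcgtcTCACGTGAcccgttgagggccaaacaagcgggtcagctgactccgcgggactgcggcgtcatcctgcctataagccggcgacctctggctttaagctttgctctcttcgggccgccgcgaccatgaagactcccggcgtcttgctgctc
The motif, which is its own reverse complement, stood in 0.974% of all windows. Of the lysosomal list, 25 genes had a window and 5 held it, and of the 5 with a window that rose, Ctsd alone did.

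Of 24 reactive astrocyte genes, 13 were tested, 1 rose and 0 fell, with a median of 0.61, again under the limit that the filter sets. Gfap, the intermediate filament of reactive astrocytes, had 355 and 625 CPM in the rNLS8 sections, against 129.6 and 98.6 CPM in the control sections (2.11, SE 0.269, adjusted p = 0.00556). It was higher in both rNLS8 sections and highest in replicate 2. S100a6, a calcium-binding protein, had 82.7 and 126 CPM in rNLS8, against 58.1 and 69.1 CPM in control (0.70, adjusted p = 0.152), and Vim, another filament protein, 46.2 and 58.9 CPM in rNLS8, against 29.7 and 38.1 CPM in control (0.61, adjusted p = 0.216). Of general astrocyte genes, 0 of 14 passed, with a median of -0.18. The oligodendrocyte list had 0 of 15 called (median 0.46), the endothelial list 0 of 13 (0.07) and the meningeal list 0 of 8 (0.21). By edgeR 2, 7, 0 and 0 genes of these lists had an unadjusted p under 0.05, as did 1862 of all genes tested, and DESeq2 called 0 in each list.

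**Figure D2:**
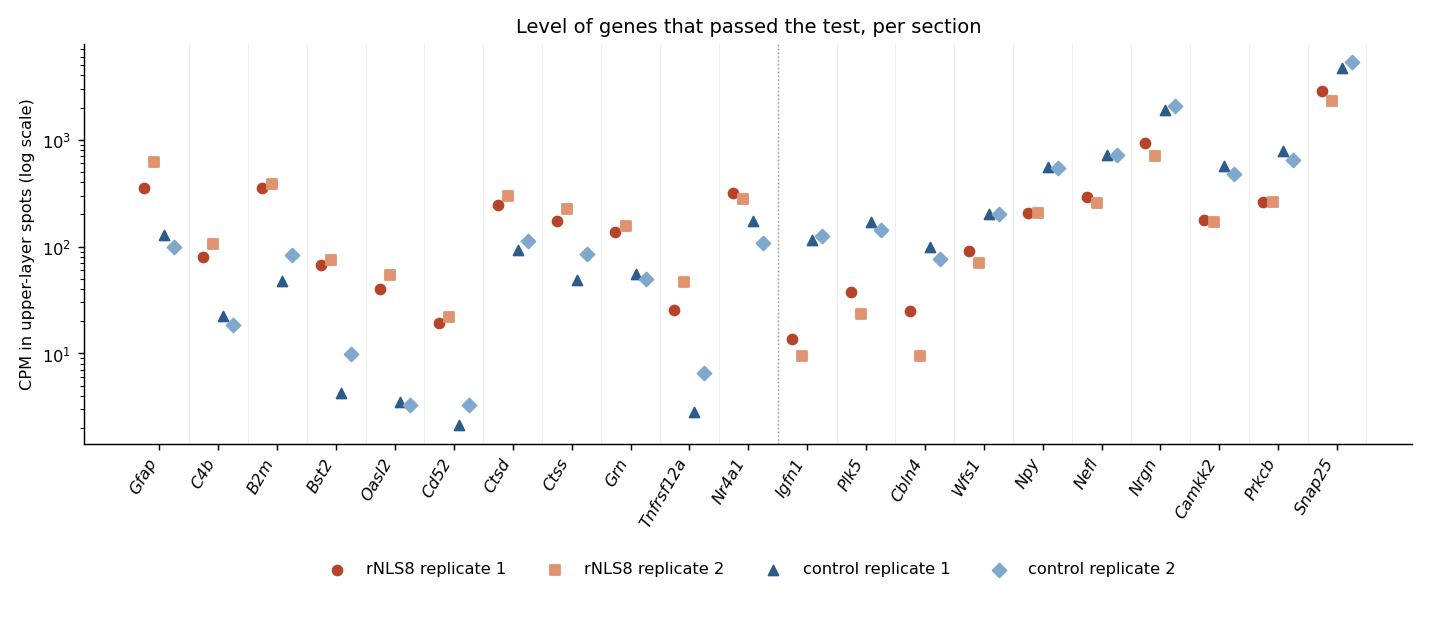
Level in CPM, on a log axis, of 21 genes that passed the test in upper-layer spots, 1 point per section, with the rNLS8 sections left of the control sections. Genes left of the dotted line were higher in rNLS8 and genes to the right lower, as Bst2 at 67.7 and 74.7 CPM against 4.25 and 9.80 CPM, and the groups do not overlap in any gene shown.

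Injury and stress genes had 24 of 28 members tested, of which 2 rose and 0 fell, with a median of 0.19. Tnfrsf12a, the receptor of the cytokine TWEAK, which injured cells raise, had 25.6 and 47.1 CPM in the rNLS8 sections, against 2.83 and 6.53 CPM in the control sections (2.85, SE 0.457, adjusted p = 0.0138). Atf3, a transcription factor of injured neurons, had 15 and 11 UMI in rNLS8, against 1 and 0 UMI in control, 21.8 times the control share of counts (3.57 to 892 as the 95% interval from counting error), with adjusted p = 0.0424. Its log2 fold change ran between 2.98 and 6.65 over the alternatives that gave it a value. It lost its call in some of the fits with a section left out. Atf5 (1.11, adjusted p = 0.0820) and Atf4 (1.41, adjusted p = 0.108), transcription factors of the integrated stress response, did not pass. Hspa5, the chaperone BiP of the endoplasmic reticulum, had 736 and 736 CPM in rNLS8, against 1336 and 1005 CPM in control and did not pass (-0.67, adjusted p = 0.0971). Max, the dimer partner of Myc, had 30.02 and 34.8 CPM in rNLS8, against 5.66 and 7.62 CPM in control (2.25, SE 0.329, adjusted p = 0.00997). Pdrg1, a gene named for its response to p53 and DNA damage and chosen here after its values were seen, had 383 and 453 CPM in rNLS8, against 115 and 110.0 CPM in control (1.89, SE 0.178, adjusted p = 0.00158), with the groups far apart.

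The largest falls were in genes with little or moderate expression. Igfn1, an immunoglobulin-like and fibronectin-domain protein known from muscle, had 13.8 and 9.54 CPM in the rNLS8 sections, against 115 and 125 CPM in the control sections (-3.33, SE 0.241, adjusted p = 0.000432). Every control section was many times above both rNLS8 sections. Plk5, a polo-like kinase family member of neurons, had 37.3 and 23.6 CPM in rNLS8, against 169 and 144 CPM in control (-2.34, SE 0.236, adjusted p = 0.00165), and Cbln4, a secreted organizer of synapses, had 24.7 and 9.54 CPM in rNLS8, against 98.4 and 76.8 CPM in control (-2.28, SE 0.338, adjusted p = 0.0103). Fst, the activin-binding protein follistatin, had 4.46 and 2.25 CPM in rNLS8, against 26.2 and 29.9 CPM in control (-2.99, SE 0.402, adjusted p = 0.00658). Muc3a, a membrane mucin, had 5.27 and 5.61 CPM in rNLS8, against 29.7 and 35.4 CPM in control (-2.58, SE 0.332, adjusted p = 0.00556), and Prss22, a serine protease, fell by 2.36 on the log2 scale. The rest of the 10 largest falls, Lrg1, Agmat, Irgc1 and Qrfpr, rested on at most 3 UMI in either rNLS8 section, as Lrg1 with 2 and 2 UMI in rNLS8, against 19 and 33 UMI in control.

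The summed level of 5 excitatory neuron markers was 5170 and 5820 CPM in rNLS8, against 7513 and 6571 CPM in control, lower in both rNLS8 sections, and its part in the falls that follow was not tested. Calcium and calmodulin kinases and phosphatases, which turn calcium entry at spines into protein phosphorylation, had 28 of 28 members tested, of which 0 rose, 7 fell and 21 did not pass, with a median of -0.42. Camkk2, which activates other calmodulin-dependent kinases, had 176 and 169 CPM in the rNLS8 sections, against 573 and 479 CPM in the control sections (-1.61, SE 0.175, adjusted p = 0.00259). Prkcb, protein kinase C beta, had 261 and 259.9 CPM in rNLS8, against 784 and 648 CPM in control (-1.46, SE 0.175, adjusted p = 0.00453), and the control level was above the rNLS8 level in every pair of sections. Itpka, a spine kinase that phosphorylates inositol trisphosphate, had 276 and 249 CPM in rNLS8, against 666 and 603 CPM in control (-1.27, SE 0.169, adjusted p = 0.00644). Itpr1, the inositol trisphosphate receptor (-1.16, adjusted p = 0.0191), Camk4 (-1.35, adjusted p = 0.0280), Camk1g (-1.34, adjusted p = 0.0367) and Ppp3ca, the catalytic subunit of calcineurin (-1.03, adjusted p = 0.0319), fell as well.

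The main spine kinase subunits did not pass: Camk2a had 679.8 and 604 CPM in rNLS8, against 807 and 1161 CPM in control (-0.62, adjusted p = 0.144) and Camk2b 1148 and 1124 CPM in rNLS8, against 1706 and 1690.1 CPM in control (-0.58, adjusted p = 0.105). Their groups did not overlap, which was true in the lower direction of 17 of the 28 genes here and of 24.6% of all genes tested. Camk2n1, an inhibitor of the same kinase that is on no list, fell, with 692 and 915 CPM in rNLS8, against 1897 and 2027 CPM in control (-1.29, SE 0.193, adjusted p = 0.0104). Without rNLS8 replicate 1, 5 of the 28 were called lower, and without rNLS8 replicate 2, 2. Without control replicate 1 or 2, 13 and 13 were called lower and 1 and 4 higher.

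Excitatory neuron genes had 15 of 16 members tested, of which 0 rose and 4 fell, with a median of -0.58. Nrgn, neurogranin, which holds calmodulin in dendrites, had 937 and 702 CPM in the rNLS8 sections, against 1894 and 2079 CPM in the control sections (-1.28, SE 0.196, adjusted p = 0.0110). Nptxr, the neuronal pentraxin receptor that gathers AMPA receptors, had 347 and 480.5 CPM in rNLS8, against 1115 and 839.6 CPM in control (-1.24, SE 0.214, adjusted p = 0.0191). Baiap2, an actin adaptor of spines, had 383 and 409 CPM in rNLS8, against 753 and 742 CPM in control (-0.92, SE 0.164, adjusted p = 0.0214). Itpka, given above, was the fourth. In each, the higher rNLS8 section was below the lower control section. Without rNLS8 replicate 1 or 2, 2 and 1 genes of the list were called lower, and without control replicate 1 or 2, 9 and 9 (0 and 1 higher), while DESeq2 called 7 of 16.

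Of 28 postsynaptic density and spine genes, 27 were tested, 0 rose and 3 fell, with a median of -0.39, namely Nrgn, Ppp3ca and Cnksr2, a scaffold of the postsynaptic density (-0.80, adjusted p = 0.0330). Of the 27, 18 had both rNLS8 sections below both control sections. Without rNLS8 replicate 1 the count called was 1, and without rNLS8 replicate 2 it was 0, while without control replicate 1 or 2 it was 13 and 12, and by DESeq2 7 of 28. Icam5, a dendritic adhesion protein of the forebrain that binds leukocyte integrins, had 293 and 309.8 CPM in rNLS8, against 583 and 519 CPM in control (-0.87, SE 0.166, adjusted p = 0.0266), and was the member that fell among 19 tested genes of signals between neurons and microglia, in which Cxcl10 rose. Icam5 was not called when either rNLS8 section was left out. Il34, a neuronal ligand of Csf1r, had 91.3 and 102 CPM in rNLS8, against 136 and 114 CPM in control (-0.37, adjusted p = 0.322).

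Presynaptic vesicle genes had 23 of 24 members tested, of which 0 rose and 3 fell, with a median of -0.37. Snap25, a membrane fusion protein, had 2843 and 2319.8 CPM in the rNLS8 sections, against 4679 and 5329.9 CPM in the control sections (-0.95, SE 0.198, adjusted p = 0.0363). Stx1a, its partner in fusion, had 91.3 and 99.3 CPM in rNLS8, against 189 and 200.4 CPM in control (-1.03, SE 0.172, adjusted p = 0.0162), and Unc13a, which readies vesicles for release and whose transcript TDP-43 protects from mis-splicing in human cells, had 129.8 and 121 CPM in rNLS8, against 256 and 249 CPM in control (-1.01, SE 0.167, adjusted p = 0.0159). All 3 lost their call when either rNLS8 section was left out, while 9 and 12 genes of the list were called lower, and 2 and 2 higher, without control replicate 1 or 2. Syt1, the calcium sensor of release, stood at -0.12 (adjusted p = 0.885) and Syp, a vesicle membrane protein, at -0.49 (adjusted p = 0.355).

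Glutamate receptor genes had 24 of 24 tested, of which 0 rose and 2 fell, with a median of -0.11. Gria3, an AMPA receptor subunit, had 182 and 246 CPM in rNLS8, against 584 and 423 CPM in control (-1.24, SE 0.215, adjusted p = 0.0196), and Cacng3, an auxiliary subunit of AMPA receptors, had 183 and 195 CPM in rNLS8, against 352 and 299 CPM in control (-0.78, SE 0.171, adjusted p = 0.0424). Neither was called without rNLS8 replicate 1, and Cacng3 was not called without rNLS8 replicate 2 either. The subunits Gria1 (0.32, adjusted p = 0.398) and Gria2 (0.30, adjusted p = 0.605) had positive values that did not pass, as did Grin1 (0.09, adjusted p = 0.823). No GABA receptor gene passed of 12 (median -0.29), no potassium channel gene of 34 (-0.14) and no sodium, calcium or HCN channel gene of 26 (-0.10). Before adjustment 4, 8 and 5 genes of these lists had p under 0.05 by edgeR, and 1, 2 and 0 were called by DESeq2. The smallest adjusted p among the potassium channel genes was 0.0517, for Kcnab2, which had 1019 and 1101 CPM in rNLS8, against 678 and 591 CPM in control. Kcns1, a modulatory subunit, had 29.6 and 9.54 CPM in rNLS8, against 55.9 and 66.4 CPM in control (-1.58, adjusted p = 0.0563).

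Of 18 inhibitory neuron and neuropeptide genes, 17 were tested, 0 rose and 1 fell, with a median of -0.06. Npy, neuropeptide Y of cortical interneurons, had 206 and 207 CPM in the rNLS8 sections, against 552 and 545 CPM in the control sections (-1.41, SE 0.163, adjusted p = 0.00380). The sections of each group lay close together, and far from those of the other. Tac2, a tachykinin precursor, had 71.4 and 72.97 CPM in rNLS8, against 45.3 and 32.7 CPM in control and did not pass (0.90, adjusted p = 0.0636). Of 19 axon and cytoskeleton genes tested, Nefl, the light neurofilament chain, fell, with 291 and 254 CPM in rNLS8, against 726 and 719.8 CPM in control (-1.41, SE 0.169, adjusted p = 0.00453), and 0 rose (median -0.12). It was not called without rNLS8 replicate 2. Ank3, the organizer of the axon initial segment, had 549 and 443 CPM in rNLS8, against 293 and 356 CPM in control (0.61, adjusted p = 0.116).

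Activity-regulated genes, which neurons transcribe within minutes to hours of firing, had 26 of 27 members tested, of which 1 rose and 1 fell, with a median of 0.07. Nr4a1, an immediate early nuclear receptor, had 316 and 277 CPM in the rNLS8 sections, against 173 and 109 CPM in the control sections (1.08, SE 0.221, adjusted p = 0.0333). Nptx2, a secreted pentraxin that excitatory neurons deposit on interneurons, had 10.5 and 11.2 CPM in rNLS8, against 40.4 and 37.02 CPM in control (-1.82, SE 0.275, adjusted p = 0.0104). Fos (1.13, adjusted p = 0.0724), Btg2 (1.92, adjusted p = 0.0517) and Egr3 (-1.56, adjusted p = 0.0556) did not pass, and Arc stood at -0.01 (adjusted p = 0.992). Cholesterol synthesis genes had 0 of 19 called (median -0.03) and striatal genes 0 of 9 (median -0.59) by edgeR, with 2 at an unadjusted p under 0.05 in each list and 0 called by DESeq2.

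Upper-layer identity genes that the rule did not use had 15 of 17 members tested, of which 0 rose and 3 fell, with a median of -0.42. Wfs1, an endoplasmic reticulum protein that marks superficial cortical neurons, had 91.7 and 70.2 CPM in the rNLS8 sections, against 202 and 203 CPM in the control sections (-1.31, SE 0.189, adjusted p = 0.00915). Pdzrn3, a ubiquitin ligase, had 40.2 and 29.7 CPM in rNLS8, against 89.2 and 75.7 CPM in control (-1.22, SE 0.224, adjusted p = 0.0233), and Otof, a calcium sensor of vesicle fusion found in superficial neurons, had 4.87 and 4.49 CPM in rNLS8, against 19.1 and 14.2 CPM in control (-1.80, SE 0.408, adjusted p = 0.0499). Cux1 (-0.54, adjusted p = 0.139), a transcription factor of upper-layer neurons, did not pass. None of the 3 was called without rNLS8 replicate 2, and Otof was also lost without rNLS8 replicate 1 and was called in 4 of the 10 other alternatives that gave it a value. Without control replicate 1 or 2, 6 and 9 genes of the list were called lower. Of 12 deep-layer genes tested, 0 were called, with a median of 0.08. Before adjustment 3 of these had p under 0.05 by edgeR, and 0 were called by DESeq2. Wfs1, Otof and Cux1 are also among the unused markers whose summed layer contrast was smaller in rNLS8. Lower levels of such markers and a less sharp choice of spots cannot be told apart here, and the part of either was not tested.

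**Figure D3:**
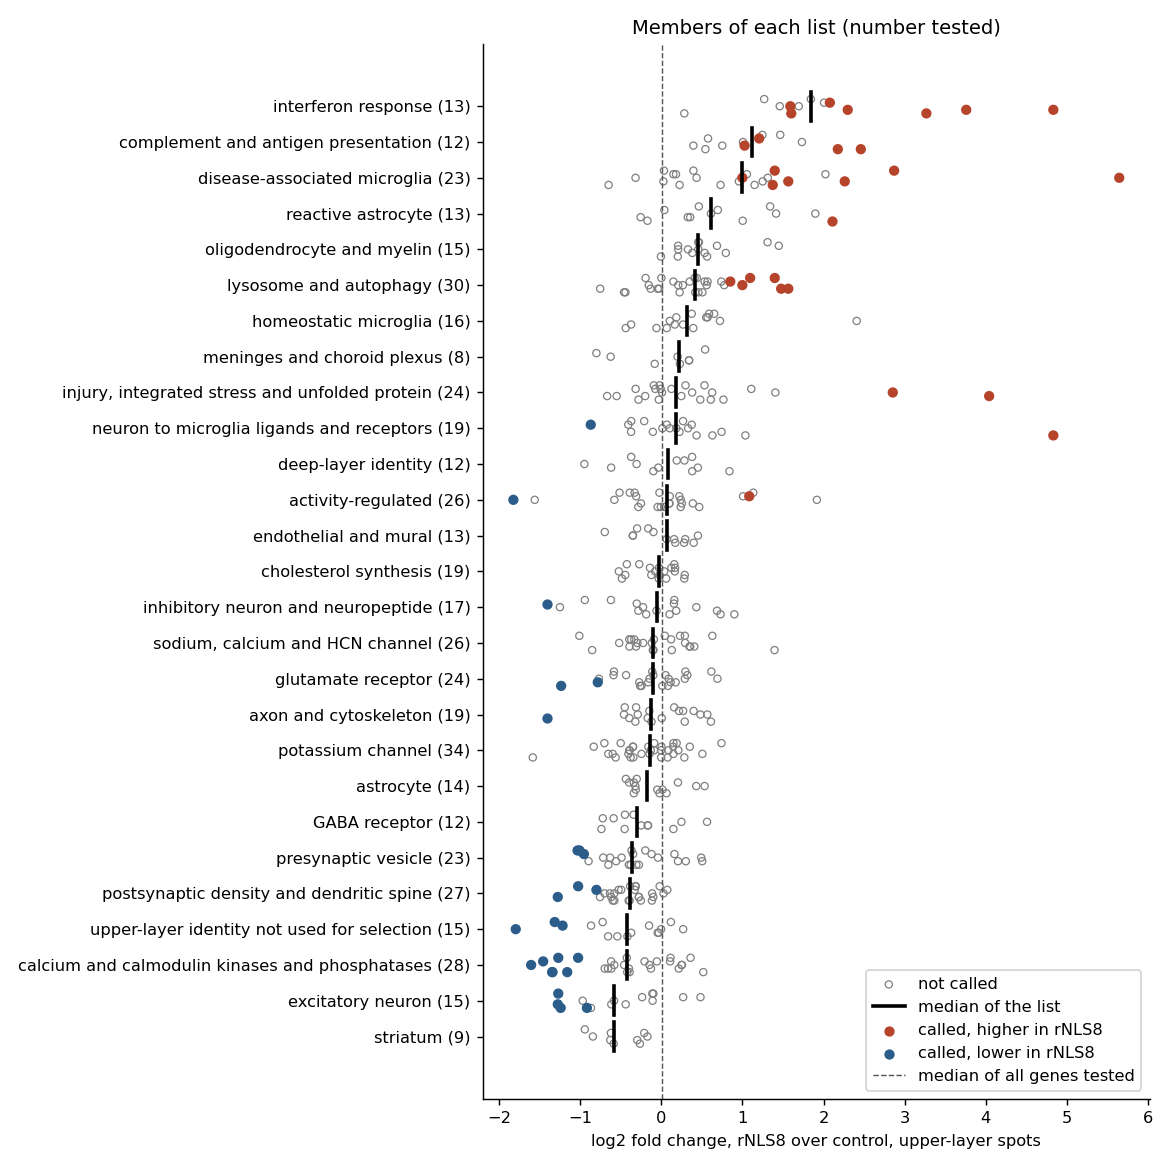
Log2 fold change, rNLS8 over control, of each tested member of 27 gene lists in upper-layer spots, with red for genes called higher, blue for genes called lower and open circles for the rest. The black bar is the list's median, from 1.84 for interferon response to -0.59 for striatum, and the dashed line the median of all genes tested, 0.01.

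For some genes the differences were spread over many spots. After each spot was thinned to 2000 UMI, 53.2% and 49.8% of the selected spots of the rNLS8 sections held a UMI of B2m, against 10.4% and 14.8% in the control sections, and the exact 95% intervals, 47.3% to 59.0% and 43.6% to 56.0% against 6.96% to 14.7% and 10.8% to 19.5%, were apart. Unthinned shares were 85.9% and 85.4% in rNLS8 and 22.7% and 40.1% in control. For Gfap the thinned shares were 47.5% and 65.1% in rNLS8 and 22.7% and 20.6% in control (unthinned, 86.5% and 93.9% in rNLS8 and 42.3% and 43.3% in control).

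Bst2 was seen in fewer spots, 12.5% and 14.6% thinned in rNLS8 and 1.15% and 2.89% in control (unthinned, 38.05% and 37.2% in rNLS8 and 2.31% and 6.14% in control). Nefl was seen in 40.7% and 39.8% of spots in rNLS8 and 68.1% and 75.8% in control (unthinned, 84.2% and 74.7% in rNLS8 and 94.2% and 93.1% in control). Cst7 was seen in 0.673% and 7.28% in rNLS8 and in 0 of 260 and 0 of 277 spots in control, which allows shares of up to 1.15% and 1.08% (unthinned, 7.74% and 15.7% in rNLS8 and 0.385% and 0% in control). Other genes were seen in few thinned spots. Cxcl10 had a UMI in 2.36% and 8.05% of rNLS8 spots and in 0 of 260 and 0 of 277 control spots, which allows shares of up to 1.15% and 1.08% (unthinned 6.40% and 16.5% in rNLS8, and 0.769% and 0% in control). Atf3 had one in 1.01% and 1.53% of rNLS8 spots and in 0 and 0 control spots, under the same limits (unthinned 4.71% and 3.83% in rNLS8, and 0.385% and 0% in control). Nptx2 had one in 3.03% and 1.15% of rNLS8 spots and in 5.77% and 6.50% of control spots (unthinned 7.74% and 6.90% in rNLS8, and 18.5% and 18.1% in control). In rNLS8 replicate 1 the thinned Cst7 share was under the limit that the control counts allow, and in replicate 2 above it. The intervals and limits cover counting error only, and 2 sections against 2 cannot give an exact permutation p under 0.333.

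To see how the levels ran over the whole marker range, the Slc17a7-high spots of each section were split into 5 equal bins by the summed share of the 5 selecting markers, the fifth being the upper-layer spots. Wfs1 averaged 63.6, 58.5, 59.3, 77.5 and 80.9 CPM from the first to the fifth bin in rNLS8 and 84.3, 91.2, 112, 131 and 202 CPM in control, so that the groups were furthest apart in the upper-layer spots. Igfn1 averaged 6.89, 10.4, 10.3, 13.8 and 11.7 CPM in rNLS8 and 51.1, 60.7, 68.9, 64.8 and 120.0 CPM in control. In both genes the control level was highest in the fifth bin, while the rNLS8 level was below the control level in each bin.

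Gfap averaged 808, 785, 725, 628 and 490.3 CPM in rNLS8 and 149, 117, 145, 157 and 114 CPM in control, and its rNLS8 level was lowest in the upper-layer spots. C1qa averaged 425, 415, 434, 370.3 and 330.1 CPM in rNLS8 and 152, 147, 154, 169 and 161 CPM in control. Nefl averaged 282, 303, 291, 285 and 273 CPM in rNLS8 and 685, 774, 723, 672 and 723 CPM in control, a gap of about the same size in every bin. Median log2 fold changes of the interferon list were 2.43, 2.33, 2.20, 2.36 and 1.84 from the first to the fifth bin, with 18, 16, 16, 15 and 13 genes tested. Of all genes tested, 2.06%, 2.19%, 2.37%, 0.987% and 2.34% were called from the first to the fifth bin. These values describe the bins, which share their sections and were not tested against each other.

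**Figure D4:**
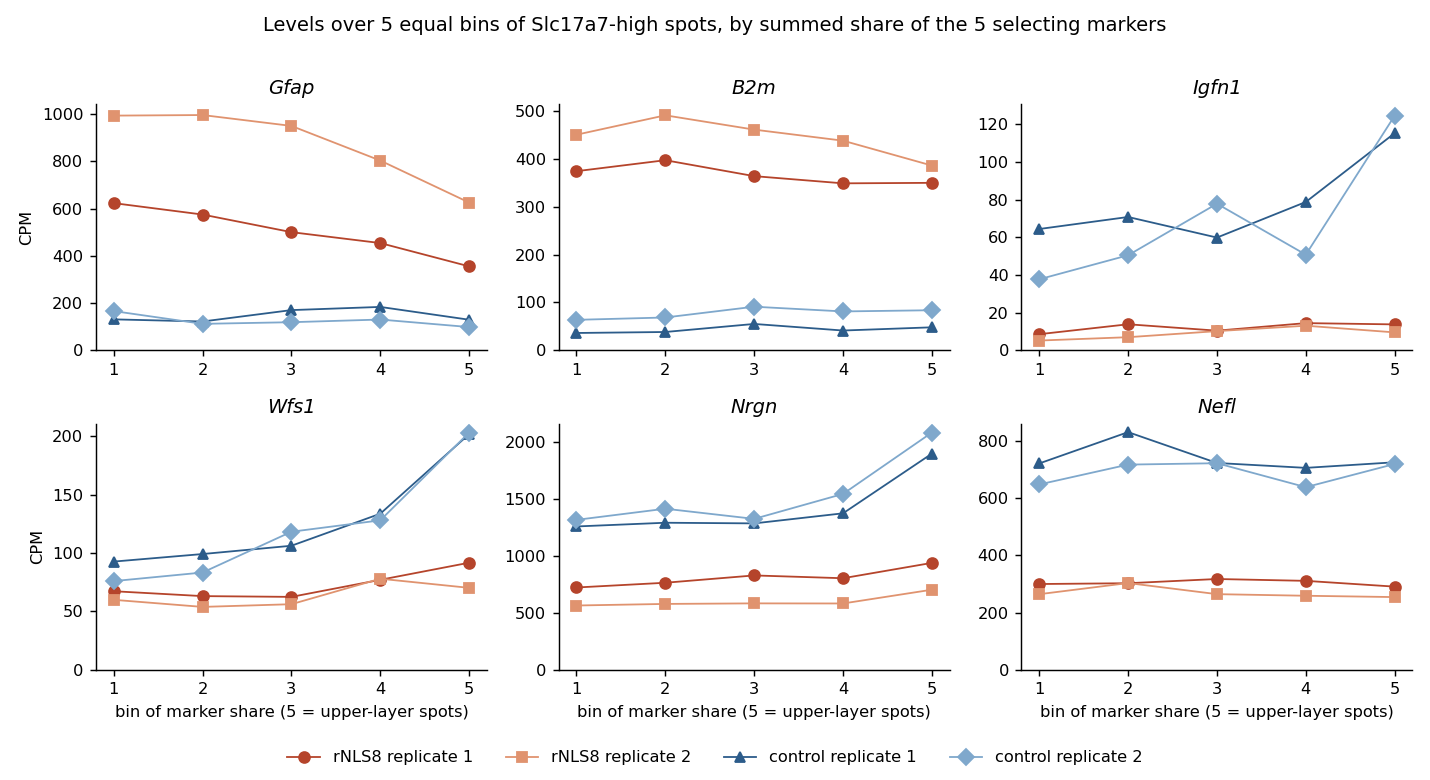
Level in CPM of 6 genes over 5 equal bins of Slc17a7-high spots, ordered by the summed share of the selecting markers, with the upper-layer spots as bin 5 and 1 line per section. For Wfs1 and Igfn1 the control lines climb towards bin 5 and the rNLS8 lines stay below them, for Gfap the rNLS8 lines come down towards bin 5, and for Nefl the lines of each group run about level.

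Whether the rNLS8 difference in upper-layer spots differed from that in the other Slc17a7-high spots of the same sections was tested as an interaction on 8 sums, with section as a block. It was called for 105 of 12115 genes (0.867%), positive in 55 (0.454%) and negative in 50 (0.413%). The common dispersion, edgeR's measure of spread beyond counting error, was 0.000454 in this fit, against 0.0202 in the fit of upper-layer spots alone. With so little spread beyond counting error and so few sections, very small p-values of the interaction say little about variation between animals. Wfs1 had 90.6 and 69.8 CPM in rNLS8 and 202 and 202 CPM in control in upper-layer spots, and 66.4 and 60.5 CPM in rNLS8 and 107 and 98.00 CPM in control in the other Slc17a7-high spots. The rNLS8 difference was thus more negative in upper-layer spots (difference of log2 fold changes -0.63, SE 0.117, adjusted p = 0.000160).

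Camk2n1, the inhibitor of calmodulin-dependent kinase II, had 684 and 911 CPM in rNLS8 and 1897 and 2018 CPM in control in upper-layer spots, and 526 and 702 CPM in rNLS8 and 1078 and 1072 CPM in control in the other Slc17a7-high spots (-0.49, SE 0.0535, adjusted p = 1.7e-13). Npy had 204 and 206 CPM in rNLS8 and 552 and 543 CPM in control in upper-layer spots, and 230.1 and 239 CPM in rNLS8 and 372 and 464 CPM in control in the other Slc17a7-high spots (-0.57, SE 0.0775, adjusted p = 1.2e-08). Rgs4, which shortens G protein signals in cortical neurons, had 514 and 354 CPM in rNLS8 and 1567 and 1138 CPM in control in upper-layer spots, and 467 and 327 CPM in rNLS8 and 1084 and 888 CPM in control in the other Slc17a7-high spots (-0.31, SE 0.0603, adjusted p = 0.000274). In these genes both control sections were higher in upper-layer spots than in the other spots, and rNLS8 was below control in both classes. Camk2n1, Rgs4 and Npy were chosen for naming after their values were seen. Of 13 alternatives, Camk2n1 was called in 13, Npy and Rgs4 in 10 and Wfs1 in 9. The Npy difference ran between -0.81 and -0.041 over them, and that of Camk2n1 between -0.53 and -0.34.

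The rule for naming, which takes the largest coefficients, gave genes at low levels, each called in at most 6 of 13 alternatives. Disc1, a scaffold protein named for a schizophrenia translocation in humans, had 8.42 and 5.59 CPM in rNLS8 and 14.9 and 19.5 CPM in control in upper-layer spots, and 7.97 and 10.9 CPM in rNLS8 and 8.32 and 8.76 CPM in control in the other Slc17a7-high spots (-1.37, SE 0.363, adjusted p = 0.0284). Inpp5d, the phosphatase SHIP1 of myeloid cells, had 12.4 and 10.6 CPM in rNLS8 and 16.3 and 21.1 CPM in control in upper-layer spots, and 16.8 and 21.5 CPM in rNLS8 and 11.97 and 13.9 CPM in control in the other Slc17a7-high spots (-1.22, SE 0.304, adjusted p = 0.0174). Its rNLS8 sections were below control in upper-layer spots and above control in the other spots. Pdp1, a pyruvate dehydrogenase phosphatase (-1.22, SE 0.254, adjusted p = 0.00145), Vasn (-1.07, SE 0.263, adjusted p = 0.0164) and Slc9a9, a sodium and proton exchanger (-0.90, SE 0.248, adjusted p = 0.0410), were also negative. Csf1r and C1qb, named after their values were seen, were negative at -0.60, SE 0.152, adjusted p = 0.0204 and -0.60, SE 0.157, adjusted p = 0.0268, called in 4 and 6 of 13 alternatives, with Csf1r at 68.5 and 67.6 CPM in rNLS8 and 61.6 and 68.9 CPM in control in upper-layer spots, and 79.1 and 96.8 CPM in rNLS8 and 48.8 and 59.8 CPM in control in the other Slc17a7-high spots.

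On the positive side, Lat2 had 10.02 and 12.8 CPM in rNLS8 and 0.708 and 0.542 CPM in control in upper-layer spots, and 7.48 and 7.80 CPM in rNLS8 and 3.07 and 3.70 CPM in control in the other Slc17a7-high spots (2.99, SE 0.814, adjusted p = 0.0376). Its rise in rNLS8 was steeper in upper-layer spots, on few counts. Itgbl1, an integrin-related protein (2.07, SE 0.536, adjusted p = 0.0249), Dgkg, a diacylglycerol kinase (1.30, SE 0.336, adjusted p = 0.0249), Hspa12b, a heat shock protein of endothelium (1.20, SE 0.306, adjusted p = 0.0228), and Tshz2, a zinc finger protein of cortical neurons (0.97, SE 0.255, adjusted p = 0.0268), were positive too. Fezf2, the transcription factor of corticospinal neurons and named after its values were seen, had 35.7 and 58.7 CPM in rNLS8 and 38.9 and 37.95 CPM in control in upper-layer spots, and 72.96 and 95.6 CPM in rNLS8 and 121 and 104 CPM in control in the other Slc17a7-high spots (0.67, SE 0.176, adjusted p = 0.0268). Over 13 alternatives its difference ran between -0.056 and 0.85 and was called in 4. None of these positive genes other than Lat2 was called in the upper-layer spots alone. With spots selected by Cux2 and Stard8 alone, the differences of Itgbl1, Hspa12b and Slc9a9 changed sign, to -0.56, -0.017 and 0.0093.

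The called genes followed the layer contrast of the control sections. All 50 with a negative difference were higher in upper-layer than in the other spots in control, and all 55 with a positive one were lower. The median log2 ratio of upper-layer to other spots was 0.05 in rNLS8 and 0.57 in control for the 50, and -0.05 in rNLS8 and -0.51 in control for the 55. In 45 of the 50 and 51 of the 55 the ratio was nearer to 0 in rNLS8. The genes were called on the difference between these same ratios, which nearly fixes such counts. They describe the called genes and are no separate result. Whether the choice of spots was less sharp in rNLS8, and its part in these differences, was not tested. With spots thinned to 2000 UMI before selection, 3 genes were called.

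**Figure D5:**
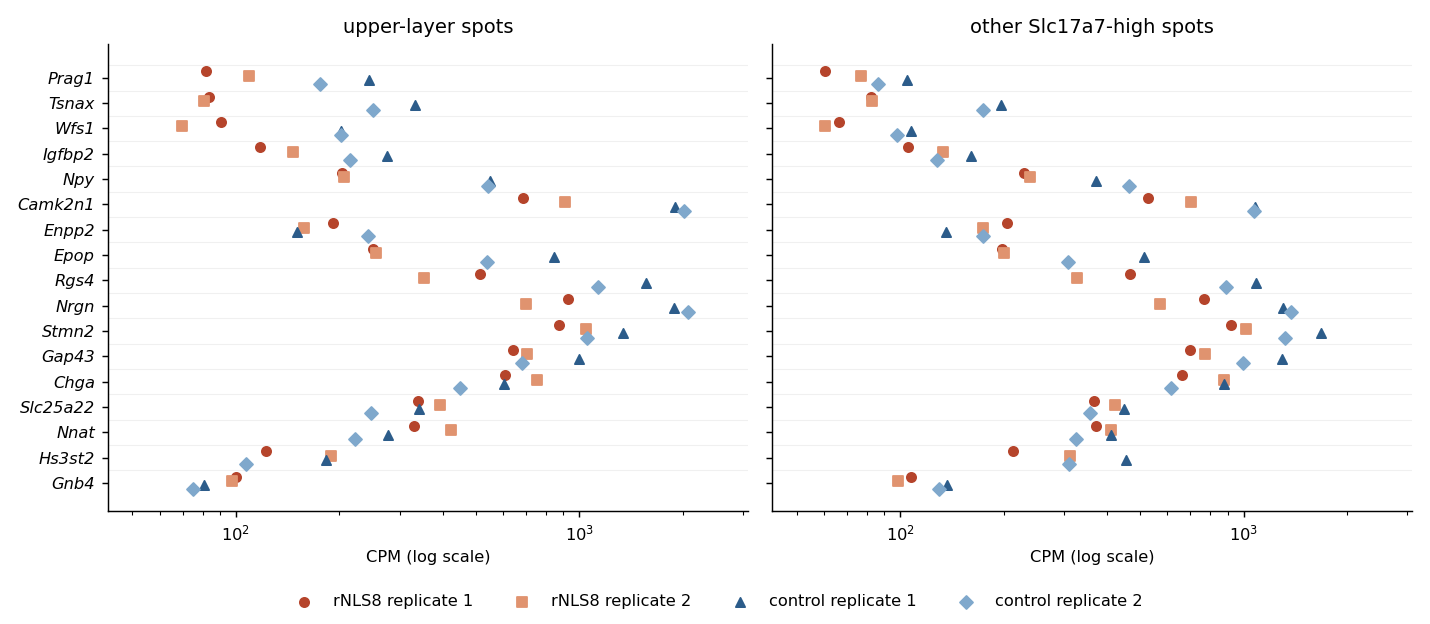
Level in CPM, on a log axis, of 17 genes with a called difference between spot classes, in upper-layer spots on the left and in the other Slc17a7-high spots on the right, 1 point per section. They are called genes that stayed called in at least 9 of 13 alternatives, ordered from the most negative difference at the top to the most positive at the bottom, and for Wfs1, Npy and Camk2n1 the 2 groups lie further apart in upper-layer spots.

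Against deep-layer spots the interaction was called for 32 of 10809 genes (0.296%), positive in 14 (0.13%) and negative in 18 (0.167%). The common dispersion of this fit was 0.000831, so the same caution holds for its p-values. Cited4, a transcriptional coactivator, had 32.5 and 17.2 CPM in rNLS8 and 69.1 and 81.4 CPM in control in upper-layer spots, and 23.9 and 17.2 CPM in rNLS8 and 28.2 and 31.5 CPM in control in deep-layer spots (-1.03, SE 0.249, adjusted p = 0.0474). Prag1, a pseudokinase (-0.78, SE 0.149, adjusted p = 0.00447), Rnd1, a small GTPase of dendrites (-0.78, SE 0.172, adjusted p = 0.0205), and Tsnax, the partner of the RNA-binding protein translin (-0.74, SE 0.132, adjusted p = 0.00191), were negative. Tsnax had 83.9 and 80.6 CPM in rNLS8 and 332 and 249 CPM in control in upper-layer spots, and 89.1 and 89.9 CPM in rNLS8 and 195 and 178 CPM in control in deep-layer spots. It fell in upper-layer spots, and its level in deep-layer spots was lower in rNLS8 as well.

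Gng4, a G protein gamma subunit, had 175 and 164 CPM in rNLS8 and 86.1 and 81.9 CPM in control in upper-layer spots, and 158 and 156 CPM in rNLS8 and 128 and 143 CPM in control in deep-layer spots (0.82, SE 0.134, adjusted p = 0.000625). It rose in upper-layer spots (1.02, SE 0.175, adjusted p = 0.0191), where both rNLS8 sections were well above both control sections. The other positive genes named by size were Errfi1, an inhibitor of the EGF receptor (1.17, SE 0.279, adjusted p = 0.0437), Tmem163, a zinc transporter of vesicles (0.94, SE 0.199, adjusted p = 0.0150), Shisal1 (0.92, SE 0.223, adjusted p = 0.0474) and Tpbg, a membrane glycoprotein (0.81, SE 0.169, adjusted p = 0.0119). All 18 negative genes were higher in upper-layer than in deep-layer spots in control and all 14 positive ones lower. In rNLS8, 18 and 13 of these ratios were nearer to 0, which again follows largely from how the genes were called.

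Fitted alone, the other Slc17a7-high spots had 30 of 12438 genes called (0.241%), 17 higher (0.137%) and 13 lower (0.105%). Deep-layer spots had 61 of 10674 called (0.571%), 28 higher (0.262%) and 33 lower (0.309%). Of the 238 genes called in upper-layer spots, 26 were called in the other spots (10.9% of the 238 and 86.7% of the 30) and 50 in deep-layer spots (21.0% of the 238 and 82.0% of the 61). A gene called in 1 class and not in the other is not thereby shown to differ between them. B2m had a log2 fold change of 2.46 in upper-layer and 2.80 in the other spots, and Nefl of -1.41 in upper-layer and -1.31 in the other spots, and neither difference between classes was called (-0.33, adjusted p = 0.253, and -0.11, adjusted p = 0.695, in the interaction).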

How the data were processed

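The deposited matrices give unnormalized UMI counts for each gene in each spot, with array positions, made by the authors with Space Ranger 2.1.0 per the file headers, on mm10 per the submitters' processing notes. In this work counts were summed per section over the spots of each class. The 6 selecting genes were left out (11 genes in the fit against deep-layer spots). Gene symbols that stand for several gene IDs stayed in the fits and were left out of the lists. Sums were filtered with filterByExpr, scaled by TMM and tested with edgeR 4.0.16 (limma 3.58.1, R 4.3.3) by its quasi-likelihood test, rNLS8 against control, with Benjamini-Hochberg adjustment over all genes tested. Differences between spot classes were interaction terms on 8 sums, with section as a block. CPM of genes are TMM-scaled, and those of summed markers are not.

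Genes were named as the 10 largest rises and falls among called genes with a mean of at least 5 CPM and a UMI in every section, up to 4 members per list with the smallest p, and the 5 largest coefficients each way per interaction. Other list members were added as examples after their values were seen. The spots, lists and rules were chosen with earlier results of these data known. Some listed genes were not analysed here, and some named by the rule are not reported here. Alternatives were DESeq2 1.42.0, its size factors, no filter, a replicate block, at least 500 UMI, the top 10% or 30% of spots, Cux2 and Stard8 alone, thinning to 2000 UMI before selection, no edge spots and each section left out, and, added after seeing the data, selection with neighbouring spots. Fits were tested on simulated data. Other steps used Python 3.11.15, numpy 2.4.6, scipy 1.17.1, pandas 2.3.3 and matplotlib 3.10.9.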

Additional observations from a re-analysis of the deposited data

Results flagged for a closer look

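The results below stood out because the rNLS8 difference in upper-layer spots differed from that in another spot class of the same sections, by the interaction term of edgeR's quasi-likelihood test. Each value is the log2 fold change in upper-layer spots minus that in the other class. Against the other Slc17a7-high spots the differences were -1.37 for Disc1, -1.22 for Inpp5d, -1.22 for Pdp1, -1.07 for Vasn and -0.90 for Slc9a9. They were 0.97 for Tshz2, 1.20 for Hspa12b, 1.30 for Dgkg, 2.07 for Itgbl1 and 2.99 for Lat2. Of 13 alternatives, these genes were called in 4, 5, 6, 5 and 4, and in 3, 3, 2, 4 and 4, in the order given. Against deep-layer spots they were -1.03 for Cited4, -0.78 for Prag1, -0.78 for Rnd1 and -0.74 for Tsnax. They were 0.81 for Tpbg, 0.82 for Gng4, 0.92 for Shisal1, 0.94 for Tmem163 and 1.17 for Errfi1. Calls in the 13 alternatives numbered 3, 9, 8 and 12, and 6, 11, 5, 7 and 3, in the same order. With 2 sections a group, no group was large enough to look for a section far from the others.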

How the results depend on the processing

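The count of 238 genes called in upper-layer spots became 824 without the filter on low counts and 77 to 2379 when a section was left out, and lay between 187 and 352 under the other alternatives. Against the other Slc17a7-high spots, 105 genes became 49 with at least 500 UMI, 13 with the top 10% of spots, 50 with the top 30%, 18 with Cux2 and Stard8 alone, 3 after thinning, 67 without edge spots, 37 with neighbouring spots (added after seeing the data) and 22 to 69 when a section was left out. Against deep-layer spots, 32 became 19 with at least 500 UMI, 12 with the top 10%, 62 with the top 30%, 6 after thinning, 53 without the filter and 12 to 49 when a section was left out. The cause was not tested. Among genes named by the rule, 8 values changed sign: Dcn to 0.53 and Slc9a9 to 0.061 after thinning, Col1a2 to -0.40, Slc9a9 to 0.0093, Hspa12b to -0.017 and Itgbl1 to -0.56 with Cux2 and Stard8 alone, Drd2 to 0.34 without control replicate 2 (-1.29 to 0.34 over the sections left out) and Hs3st4 to 0.13 with the top 10%. Of their other values, 1562 kept direction and side of the threshold, 211 lost the call and 139 gained one. Of list medians, 319 moved by less than the spread between sections and 72 by more, and the T cell list had no member left with the top 10%.

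With the replicate number as a block, 352 genes were called, 231 of them among the 238. The replicate number also carries the labelled sex, but the labels tie no animal, litter or batch to it, and the differences of replicate 1 from replicate 2 correlated at -0.098 across genes between the groups. The fits between spot classes already hold section as a block, so no replicate block could be added there. Depth limits genes of few UMI most, as in the selection itself.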

Other observations

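Among the called genes on none of the lists, some stayed called under every alternative in which they had a value, and are named here after their values were seen. Ninj1, which takes part in the rupture of the plasma membrane of dying cells, had 50.3 and 41.5 CPM in rNLS8, against 14.2 and 10.9 CPM in control (1.89, SE 0.281, adjusted p = 0.0103). Lgals8, a galectin that binds damaged endosomes, had 88.02 and 88.1 CPM in rNLS8, against 35.4 and 38.7 CPM in control (1.24, SE 0.199, adjusted p = 0.0138). Both were higher in both rNLS8 sections.

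Nrn1, neuritin, a surface protein that promotes neurite growth, had 161 and 208 CPM in rNLS8, against 499.9 and 538 CPM in control (-1.50, SE 0.184, adjusted p = 0.00506). Scg5, a chaperone of a prohormone convertase in secretory neurons, had 303 and 250.3 CPM in rNLS8, against 857 and 689.9 CPM in control (-1.48, SE 0.188, adjusted p = 0.00556). Apln, the peptide apelin, had 18.3 and 16.3 CPM in rNLS8, against 71.5 and 47.4 CPM in control (-1.76, SE 0.277, adjusted p = 0.0131), and Robo3, an axon guidance receptor, had 26.4 and 19.6 CPM in rNLS8, against 91.3 and 72.4 CPM in control (-1.81, SE 0.241, adjusted p = 0.00644). In all 4 the rNLS8 sections were below the control sections. In all, 43 of the 238 called genes were called under every alternative in which they had a value, 30 of them with a value under all, and leaving aside the alternatives without a section the counts were 112 and 95.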
